A study of Mus musculus with 8 samples.

Results

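Retinoic acid is made, carried and sensed in a cell by the products of a small set of genes, and 9 of the 24980 genes in the count table are described here: Aldh1a1, Aldh1a2 and Aldh1a3, which encode the retinaldehyde dehydrogenases of the last step of synthesis, Stra6, a membrane receptor for retinol bound to its plasma carrier, Crabp1 and Crabp2, the cytoplasmic retinoic acid binding proteins, and Rara, Rarb and Rarg, the nuclear retinoic acid receptors. The 9 genes were chosen by function, with their measured levels in the 4 groups already known, so their levels and changes are given as a description. Whether edgeR called a change, at the thresholds given below, is part of this description, and no p-value is given for them. All 9 passed the filter on low counts. Adjusted p-values are given for the other genes of the pathway, of which 61 were in the table and 55 passed the filter. The lists of these genes were also chosen with earlier results of these data known, so their adjusted p-values do not test the pathway as a set.

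The study compared myogenic cells from mice in 4 groups, each with 2 biological replicates and 1 RNA library per replicate. TF cells were fresh progenitors from teratomas, the tumors of mixed tissues that form from pluripotent stem cells. The teratomas came from a single embryonic stem cell line that carries EGFP (E14-EGFP), implanted in irradiated and cardiotoxin-injured tibialis anterior muscle of immunodeficient dystrophic NSG-mdx4Cv mice, and the progenitors were sorted at 4 weeks as EGFP+ cells without CD31 and CD45 and with α7-integrin and VCAM-1. TE cells were such progenitors at passage 8, after culture on gelatin in a medium that favors proliferation. SF cells were freshly isolated satellite cells, which are the resident stem cells in muscle of the adult, and SE cells were the same kind at passage 8. Sex and age of the animals are not given in the sources used here, nor is whether replicates of an expanded group were separate cultures from the start, so p-values measure the spread between these libraries.

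Retinol enters the cell and is bound or stored as an ester, retinol dehydrogenases oxidize it to retinaldehyde and the Aldh1a enzymes oxidize retinaldehyde to retinoic acid. Crabp2 is known for delivering retinoic acid to the nucleus and Crabp1 for holding it in the cytoplasm, and Cyp26 enzymes break it down. In the nucleus a retinoic acid receptor pairs with a retinoid X receptor on direct repeats of a short half-site, and genes such as Rarb and Cyp26a1 are textbook targets of the pair. In muscle development the pathway is known for acting on the specification and differentiation of myogenic progenitors.

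The promoters that are textbook examples of this binding are shown because both genes were low after expansion. RefSeq windows (GRCm38.p6) of 300 bases, from 250 before a transcription start to 50 after it, were available for 7 of the 9 genes and were searched on both strands for direct repeats of the half-site AGGTCA, its variant AGTTCA, its variant GGGTCA or its variant GGTTCA, in any combination, with 1, 2 or 5 bases between the half-sites. Aldh1a3 and Crabp2 had no window and were not searched. Of the 15 windows of the 7 genes 1 held such a repeat, that of Rarb. Of the 57 windows of 44 other pathway genes 2 did, those of Cyp26a1 and Bco1, the enzyme that cleaves carotene to retinaldehyde. Among all 32851 windows 0.588% held one, and 0.222%, 0.268% and 0.0974% held one with a spacer of 1, 2 and 5 bases. The stretches below read 5′ to 3′ along each gene, and the capitals mark the repeat.
Rarb: gggaagGGTTCACCGAAAGTTCActcgca
Cyp26a1: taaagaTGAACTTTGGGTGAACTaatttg
Bco1: gggaacTGACCTTTGACCTaacaca
The Rarb stretch is chr14:16575507-16575535 on the minus strand, its repeat has a spacer of 5 bases and spans bases -53 to -37 from the start, and in GENCODE M21 it lies inside Rarb, in exons of 2 of its transcripts. The Cyp26a1 stretch is chr19:37697770-37697798 on the plus strand, with the repeat of spacer 5 on the opposite strand at -32 to -16, outside the annotated exon of Cyp26a1, which covers the last bases shown. The Bco1 stretch is chr8:117095803-117095827 on the plus strand, with the repeat of spacer 1 on the opposite strand at -56 to -44, and no annotated gene overlaps it. These are matches of letters and not measured binding sites.

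The libraries held between 11930881 and 21146554 estimated counts, and 3 counts, taken as the limit of detection for counting error only, corresponded to between 2.15 and 3.89 normalized read counts (counts divided by a size factor for each library, from DESeq2's median-ratio method). All 7 myogenic markers searched (Pax7, Myf5, Myod1, Itga7, Vcam1, Cdh15 and Des) were detected in every group, and their summed normalized read counts lay between 20112 and 50065. Single markers moved in both directions. The mean of Myf5 was 1084 in TF, 104 in TE, 1602 in SF and 96.7 in SE. In the same order that of Vcam1 was 4527, 590, 5978 and 1411, and that of Pax7 was 3990, 1372, 4313 and 1458. Means of Myod1, Itga7, Cdh15 and Des were higher after culture of either origin. Markers of other cell types also moved with culture. The 6 fibro-adipogenic markers (Pdgfra, Dpt, Lum, Dcn, Pi16 and Ly6a) summed to between 28609 and 28615 in TF and to between 15688 and 25841 in SF, against 23.1 to 89.1 in TE, where Dpt was at 0, and 104 to 109.8 in SE, where Lum was at 0. The 6 endothelial markers summed to between 1154 and 5956 in the fresh libraries and to between 8.48 and 40.8 in the expanded ones, with Kdr and Emcn at 0 in both expanded groups and Cdh5 at 0 in SE. The pericyte and smooth muscle markers, 5 in number, summed to between 6072 and 14810 in fresh and to between 872 and 1987 in expanded libraries, with Kcnj8 at 0 in both expanded groups and Rgs5 at 0 in TE. In cells sorted without CD45 and CD31, TF replicate 1 stood apart from TF replicate 2, with haematopoietic markers at 6158 against 592, endothelial markers at 3664 against 1154 and epithelial markers at 2440 against 918. The part of other cell types in the results below was not tested, and in such bulk libraries fewer cells of a type and less RNA per cell cannot be told apart.

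**Figure D1:**
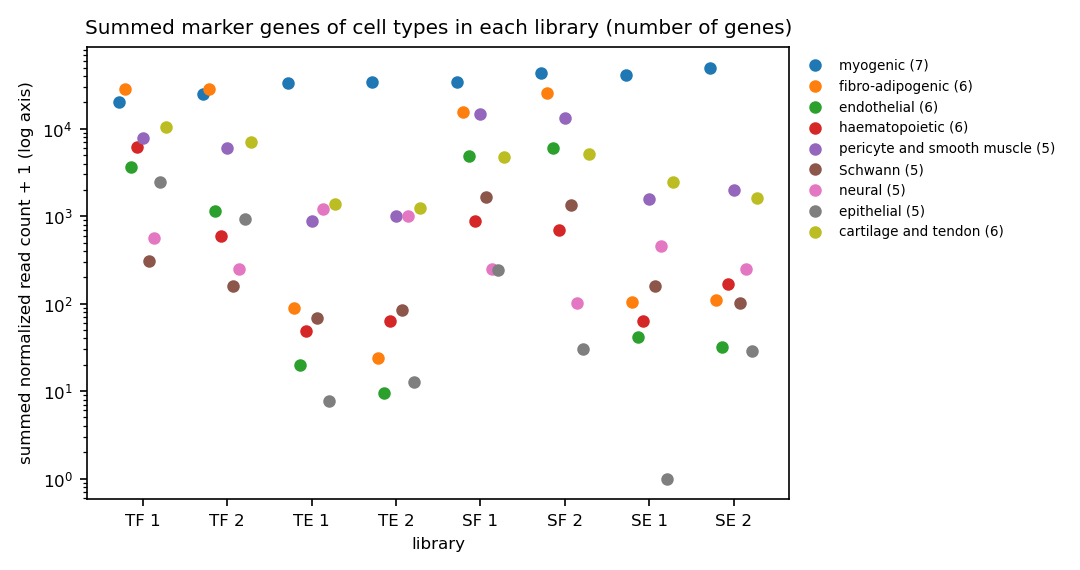
Summed normalized read counts plus 1 (vertical log axis) of 9 lists of cell type markers, the number of genes in parentheses, in each of the 8 libraries (horizontal axis). The blue myogenic points lie between 20112 and 50065 in every library, while the orange fibro-adipogenic points lie between 15688 and 28615 in the fresh libraries and between 23.1 and 109.8 in the expanded ones.

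The summed level of the synthesis enzymes was far lower after expansion of either cell type, and Aldh1a1 made up most of the difference. Aldh1a1 is on chromosome 19 (GRCm38, GENCODE M21, chr19:20492715-20643465, plus strand). Its normalized read counts were 743 and 795 in the TF replicates, 15.0 and 27.8 in TE, 939 and 1041 in SF, and 0 and 0 in SE. Both fresh groups were high, SF above TF by 1.29-fold, TE was low and SE was at 0, with no overlap between any pair of groups. The mean of TE (21.4 ± 9.03, SD, n = 2) was 36.0-fold lower than that of TF (769 ± 36.9), a log2 fold change of -5.11 ± 0.37 (SE derived from edgeR's quasi-likelihood fit). Each such standard error was the absolute log2 fold change divided by the square root of edgeR's F statistic. Ratios of means are on the median-ratio scale and log2 fold changes on edgeR's TMM scale, so they need not match. SE was at least 419-fold lower than SF and TE was at least 9.05-fold higher than SE, both computed against a floor of 3 counts per library, and the fit with only TE and SE no longer called the latter. The neighbouring, closely similar Aldh1a7 could share reads with Aldh1a1. Its normalized read counts reached 76.6 in TF replicate 1 and at most 12.7 in the other 7 libraries, and it was not called in any comparison.

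Aldh1a2, the enzyme that makes most of the retinoic acid of the early embryo, was higher in fresh teratoma-derived cells than in any other group. The gene is at chr9:71215789-71296243 on the plus strand. Its normalized read counts were 406 and 315 in TF, 4.49 and 22.4 in TE, 39.5 and 35.3 in SF, and 0 and 1.72 in SE. TF was above every other library and SE was at or under the floor. The mean of TF was 9.64-fold higher than that of SF, a log2 fold change of 3.42 ± 0.84 (SE). TE was 26.9-fold lower than TF, a log2 fold change of -4.68 ± 0.90. SE held 2 counts in all, so that SF over SE was a ratio of 47.8 with an exact 95% counting interval from 12.7 to 404. This difference was called, but not with only SE and SF in the fit. TE over SE was not called, though it was under some alternatives, among them DESeq2 and no filter on low counts. The call of TF over SF was lost without TF replicate 1, without SF replicate 1 and without SF replicate 2, with log2 fold changes between 3.24 and 3.46 in these fits.

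Aldh1a3, the enzyme of this step best known from the eye and nose, was also highest in TF. It lies on chromosome 7 (chr7:66390890-66427517, minus strand). Normalized read counts were 267 and 203 in TF, 0 and 6.17 in TE, 22.9 and 37.6 in SF, and 20.7 and 17.2 in SE. TE was 76.3-fold lower than TF (log2 fold change -6.16 ± 1.21), whereas SE and SF lay close together without overlap (-0.49 ± 0.97). The difference between these culture effects was -5.67 ± 1.49 on the log2 scale, and it was no longer called without TF replicate 1, TF replicate 2 or SF replicate 1. The 7.77-fold higher mean of TF than of SF (3.10 ± 1.02) was not called, but it was called by DESeq2, without the filter on low counts and with only TF and SF in the fit.

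Per kb of the longest annotated transcript, which allows a comparison between genes, the summed level of the 3 enzymes was 554 ± 26.1 (SD, n = 2) normalized read counts in TF and 445 ± 32.4 in SF, against 15.9 ± 10.7 in TE and 5.88 ± 0.20 in SE. The mixture differed as well. Aldh1a1 held 94.3% of the summed level in SF but 58.9% in TF, where Aldh1a2 held 28.8% and Aldh1a3 12.3%. In SE Aldh1a3 held 93.6% of the small remainder, and in TE Aldh1a1 held 57.0% and Aldh1a2 37.3%. The summed level of TF was thus spread over 3 enzymes and that of SF was almost all from 1. The levels of Aldh1a1 and Aldh1a2 in both origins, and of Aldh1a3 in teratoma-derived cells, moved with those of the fibro-adipogenic, endothelial and pericyte markers given above, and the part of such cells was not tested. The means of the myogenic markers Myf5, Vcam1 and Pax7 were also lower after culture of either origin.

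Stra6, the retinol uptake receptor (chr9:58063788-58153996, plus strand), varied widely between replicates. Its normalized read counts were 94.8 and 187 in TF, 12.0 and 5.40 in TE, 169 and 85.5 in SF, and 5.01 and 48.9 in SE. TF and SF overlapped, as did TE and SE, and every expanded library was below every fresh one. TE was 16.2-fold lower than TF (log2 fold change -3.95 ± 1.10), and this call was lost without TF replicate 2 and without either TE replicate, with values between -4.59 and -3.34. SE was 4.73-fold lower than SF (-2.04 ± 1.01), which was not called with all libraries and was called without SE replicate 2, at -4.43.

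Of the binding proteins, Crabp2 was the member with a higher level after expansion, most of all in teratoma-derived cells. The gene (chr3:87948666-87953376, plus strand) had normalized read counts of 129.8 and 135 in TF, 1284 and 1318 in TE, 138 and 107 in SF, and 245 and 209 in SE. TE stood alone at a high level with close replicates, SE was intermediate, and the fresh groups overlapped. The mean of TE (1301 ± 24.0) was 9.81-fold higher than that of TF (133 ± 3.90), a log2 fold change of 3.35 ± 0.26, and that of SE (227 ± 26.0) was 1.85-fold higher than that of SF (122 ± 21.5), a log2 fold change of 1.09 ± 0.25. The call in SE over SF was lost in the fit with only these groups. The culture effects differed by 2.26 ± 0.35 on the log2 scale, and TE was 5.73-fold higher than SE (2.54 ± 0.25). Neither the latter difference nor the gain of TE over TF lost its call in any of the alternatives. Of the 5 neural markers searched, Stmn2 was higher in TE (1197 and 994) than in TF (80.5 and 24.6) and the other 4 were lower, with 3 of them at 0 in TE, and their part was not tested.

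Crabp1 (chr9:54764748-54773110, plus strand) was far higher in fresh teratoma-derived cells than in any other group. Its normalized read counts were 98.7 and 137 in TF, 0 and 0 in TE, 0 and 2.28 in SF, and 7.15 and 1.72 in SE. TE was at least 51.6-fold lower than TF, against the floor of 3 counts per library. TF over SF was a ratio of 98.2, with an exact 95% counting interval from 26.8 to 817, since SF held 2 counts in all. SE and SF overlapped, with a ratio of 3.89 and an interval from 0.866 to 35.8. The call in TE versus TF was lost without TF replicate 2, and that in TF versus SF was lost without either TF replicate and without SF replicate 1. Per kb of transcript, Crabp1 and Crabp2 were at about even levels in TF (50.7% and 49.3% of their sum), while Crabp2 held 98.9% in SF, 97.8% in SE and all of it in TE. The summed level of the pair per kb was 289 ± 37.6 normalized read counts in TF, 1397 ± 25.8 in TE, 133 ± 21.1 in SF and 249 ± 32.7 in SE.

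**Figure D2:**
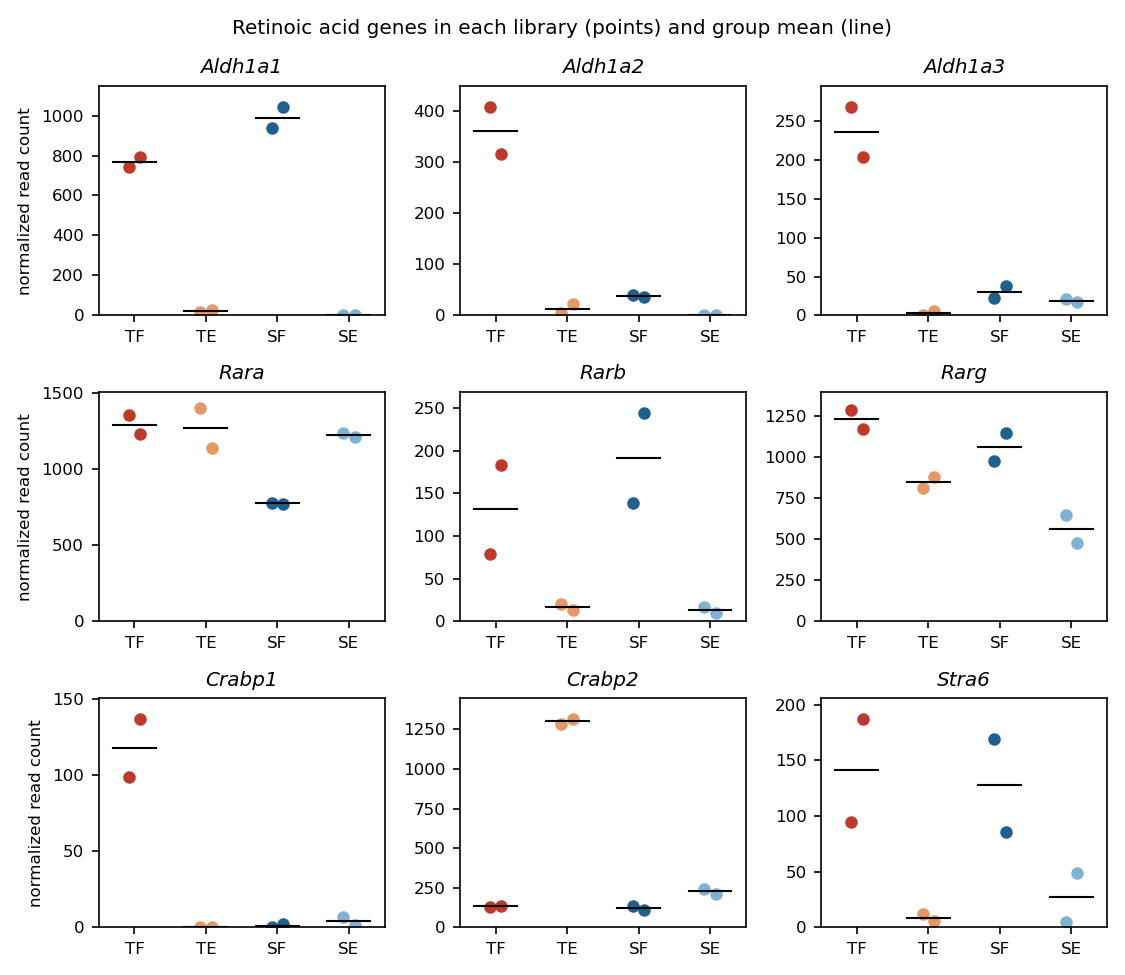
Normalized read counts (vertical axes, each from 0) of the 9 genes in the 2 libraries (points) of each group (horizontal axes), with the group mean as a line. Crabp2 is highest in TE (1284 and 1318), Aldh1a1 is high in TF (743 and 795) and SF (939 and 1041) and low or at 0 in TE and SE, and Rara is lowest in SF (777 and 773).

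Of the receptors, Rara and Rarg stayed abundant in every group and Rarb was at a low level after expansion. Rara (chr11:98927818-98974942, plus strand), the broadly expressed receptor, had normalized read counts of 1353 and 1230.4 in TF, 1403 and 1136 in TE, 777 and 773 in SF, and 1235 and 1211 in SE. SF was below the other groups, which overlapped. SE was 1.58-fold higher than SF (log2 fold change 0.85 ± 0.19) and TF was 1.67-fold higher than SF (0.90 ± 0.19), whereas TE differed from TF by 0.03 ± 0.18, a value whose sign turned with median-ratio scaling (-0.02), and from SE by 0.08 ± 0.18. The call of TF over SF was lost without TF replicate 1, at 0.83.

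Rarg (chr15:102234938-102257517, minus strand) had normalized read counts of 1292 and 1171 in TF, 816 and 880.4 in TE, 978 and 1152 in SF, and 647 and 479.7 in SE. Both expanded groups were below both fresh groups, and SE was lowest. SE was 1.89-fold lower than SF (-0.73 ± 0.21) and was called, though not with only these groups in the fit, without SF replicate 2 (-0.56) or without SE replicate 2 (-0.53). TE was 1.45-fold lower than TF (-0.48 ± 0.21), which was not called with 4 groups and was called with these groups alone, and TE was higher than SE by 0.61 ± 0.21, which was not called.

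Rarb, a receptor that is itself a retinoic acid target, is at chr14:16430839-16819156 on the minus strand, and its 5-base-spaced repeat is the one printed above. Normalized read counts were 79.2 and 183 in TF, 21.0 and 13.1 in TE, 139 and 244 in SF, and 17.2 and 9.44 in SE. The fresh groups overlapped, the expanded groups overlapped, and every expanded library was under every fresh one. TE was 7.70-fold lower than TF (-2.88 ± 0.74) and SE was 14.4-fold lower than SF (-3.65 ± 0.76), and the culture effects differed by 0.76 ± 0.99, which was not called. The call in TE versus TF was lost without TF replicate 2 (-2.12), without TE replicate 1 (-3.23) and without TE replicate 2 (-2.56). Exons of Top2b on the opposite strand overlap those of Rarb. The strand setting of the counting is not given in the sources used here, and Top2b was at between 2166 and 4506 normalized read counts, lowest in both SF libraries.

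Summed per kb, the 3 receptors were at 841 ± 30.7 normalized read counts in TF, 668 ± 42.1 in TE, 651 ± 64.6 in SF and 556 ± 46.7 in SE, a far narrower range than that of the enzymes. Rarg and Rara held 49.6% and 45.4% of the sum in TF and 55.4% and 35.2% in SF. After expansion Rara held the larger share, 56.2% in TE and 64.9% in SE, and the share of Rarb was 0.821% and 0.769%, against 5.02% in TF and 9.46% in SF.

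**Figure D3:**
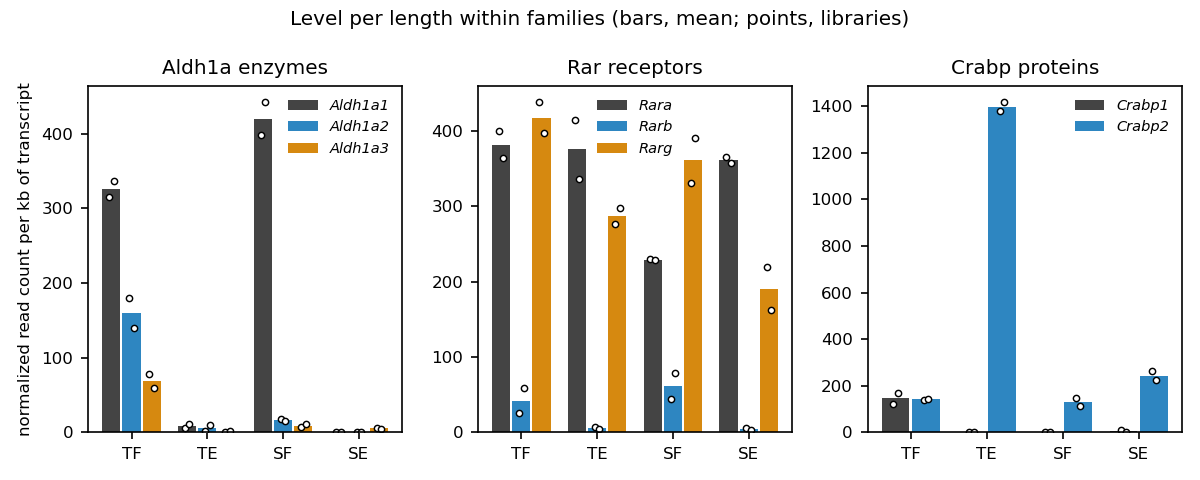
Normalized read counts per kb of the longest transcript (vertical axes, each from 0) for the Aldh1a enzymes, the Rar receptors and the Crabp proteins, by group (horizontal axes), with bars for means and points for the 2 libraries. Aldh1a bars nearly vanish in TE and SE, Rara and Rarg bars stay in all 4 groups, and the Crabp2 bar is tallest in TE.

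Set beside all tested genes, 6 of the 9 members were called lower and 1 higher in TE versus TF, where 16.2% and 9.86% of the 17582 genes were called. A gene was called at the study's thresholds, an adjusted p-value below 0.05 in edgeR's quasi-likelihood test and a change of more than 0.32 on the log2 scale. In SE versus SF 4 members were called lower and 2 higher, against 19.8% and 20.9% of all genes. In TF versus SF 3 were called higher and none lower, against 15.1% and 9.13%. With median-ratio scaling the share of all calls in TF versus SF that were higher moved from 62.3% to 52.1%, and 3 members were again called higher. None of the 3 was called without TF replicate 1, while 1 was called without SF replicate 1. In TE versus SE 2 were called higher and none lower, against 3.15% and 4.07%. For the difference between the culture effects 2 were called higher and 2 lower (Aldh1a1 and Crabp2, and Aldh1a3 and Crabp1), against 4.7% and 9.62%, and without TF replicate 2 only 2 of these 4 were called. Without TF replicate 2 fewer members were called in TE versus TF. In each of these fits with a library left out, fewer of all genes were called as well. The median log2 fold change of the 9 genes was -3.95 in TE versus TF, where that of all tested genes was -0.18, and it was -0.73 in SE versus SF, where that of all was -0.23. In TF versus SF it was 0.37 against 0.08, and in TE versus SE 0.37 against -0.00. Since the genes were chosen with these comparisons in view, nothing about the set is read from these counts and medians.

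**Figure D4:**
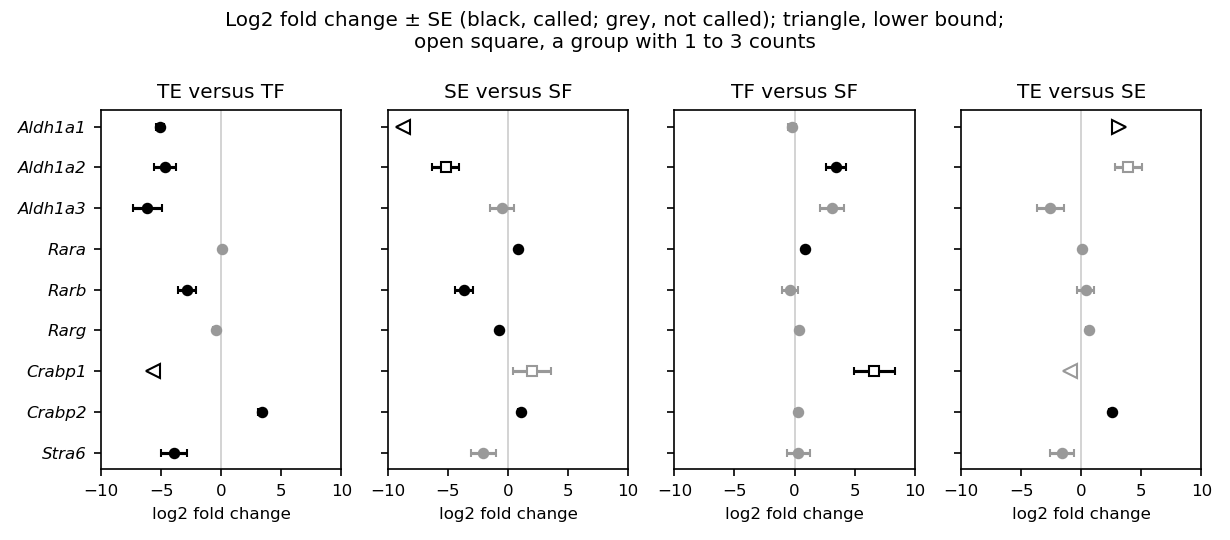
Log2 fold change (horizontal axes) of the 9 genes in 4 comparisons, with bars of 1 SE, black where called and grey where not. Triangles are lower bounds against a group at 0 and open squares mark groups with 1 to 3 counts, whose fitted size depends on the prior count. Crabp2 lies right of 0 in TE versus TF, SE versus SF and TE versus SE, while Aldh1a1, Aldh1a2, Rarb and Stra6 lie left of 0 in both culture comparisons.

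The wider pathway was described with lists of the genes that handle retinol, degrade retinoic acid or act beside the receptors. Earlier results of these data were known when the lists were chosen. In TE versus TF 18 of the 55 tested genes were called lower and none higher, against 16.2% and 9.86% of all genes. In SE versus SF 22 were called lower and 5 higher, against 19.8% and 20.9%. With median-ratio scaling 23 were called lower and 3 higher in SE versus SF, and the share of higher calls among all calls was 43.6% in place of 51.4%. Their median log2 fold change was -1.40 in teratoma-derived cells and -0.80 in satellite cells. All adjusted p-values below are from edgeR's quasi-likelihood test with Benjamini-Hochberg adjustment over all 17582 genes. They take no account of the choice of the lists or of naming genes by the size of a called change.

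In uptake and storage, 3 of 5 tested genes were called lower in each culture comparison and none higher. Of all genes 16.2% were called lower in TE versus TF and 19.8% in SE versus SF, and 9.86% and 20.9% were called higher. Rbp4, the plasma carrier of retinol, was at 144 and 121 in TF and 0 in both TE libraries, at least 58.1-fold lower (adjusted p = 0.00377), and it was at 65.0 and 138 in SF and 0 and 3.43 in SE, with a log2 fold change of -5.67 ± 1.32 (adjusted p = 0.00905). Ttr, the plasma protein that holds Rbp4, was at 89.6 and 486 in TF and at 0 in TE, at least 126-fold lower (adjusted p = 0.00382), and at no more than 5.15 in SF and SE. SF was at or under the floor in Ttr, and TF was at least 79.5-fold higher than SF (adjusted p = 0.0123). Both Ttr calls were lost without TF replicate 2 (adjusted p = 0.0734 and 0.266), and that of TF versus SF also without SF replicate 1 (0.0656).

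In the conversion of retinol and retinaldehyde 5 of 17 tested genes were called lower in TE versus TF, and 5 lower and 2 higher in SE versus SF. Of all genes 16.2% were called lower in TE versus TF, and 19.8% lower and 20.9% higher in SE versus SF. Rdh10, the dehydrogenase that supplies retinaldehyde in the embryo, was at 467 and 317 in TF, 54.7 and 90.2 in TE, 348 and 574 in SF, and 73.0 and 132 in SE. It was lower after culture of either origin, with log2 fold changes of -2.38 ± 0.47 (adjusted p = 0.00509) in TE and -1.98 ± 0.46 (adjusted p = 0.00743) in SE. Dhrs3, which returns retinaldehyde to retinol, was also lower after culture of either, with -4.22 ± 0.66 (adjusted p = 0.00139) in TE and -2.38 ± 0.60 (adjusted p = 0.0112) in SE, and its normalized read counts were 399 and 273 in TF, 9.73 and 24.7 in TE, 243 and 303 in SF, and 25.0 and 66.9 in SE. Adh1, an alcohol dehydrogenase that accepts retinol, was at 465 and 308 in TF and 296 and 348 in SF but at 0 in all 4 expanded libraries, at least 169-fold lower in TE (adjusted p = 7.87e-05) and at least 136-fold lower in SE (adjusted p = 5.99e-05). Rdh14 and Adh5 rose in SE versus SF, with log2 fold changes of 2.20 ± 0.40 (adjusted p = 0.00207) and 1.71 ± 0.33 (adjusted p = 0.0027). Rdh1 was the called gene of this list that was lower in TF than in SF (-2.26 ± 0.64, adjusted p = 0.0303), and its SF replicates differed widely, at 2413 and 535. The Rdh1 call was lost with only the groups compared (adjusted p = 0.0727), without TF replicate 1 (0.106) and without SF replicate 1, where the value was -0.86 (0.347). Rdh5 was lower in TE than in SE by -1.78 ± 0.46 (adjusted p = 0.0473), which was lost with only the groups compared (0.0629), with the replicate block (0.0657), and without either TE replicate or SE replicate 2 (0.092 to 0.329).

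Both tested degradation enzymes were called lower in TE versus TF, where 16.2% of all genes were. Cyp26a1, whose promoter stretch is printed above, was at 23.4 and 45.5 normalized read counts in TF, 0 and 0.771 in TE, 318 and 442 in SF, and 18.6 and 0 in SE. SF was the high group. SE fell against SF by 5.12 on the log2 scale (SE 1.24, adjusted p = 0.0092), and TF over TE, where TE held 1 count, was a ratio of 91.5 with an exact 95% counting interval from 15.7 to 3678 (adjusted p = 0.0216, and 0.0771 without TE replicate 1). TF was 11.0-fold lower than SF, which was not called (adjusted p = 0.0616) but was with only the groups compared (0.00736) and with DESeq2 (0.0141). Cyp26b1 was at 225 and 357 in TF, 8.24 and 13.1 in TE, 149 and 212 in SF, and 83.0 and 17.2 in SE. It fell by 4.70 in TE (SE 0.80, adjusted p = 0.00235), while the value in SE was -1.66 ± 0.70 (adjusted p = 0.0822), called without SE replicate 1 at -3.18 (0.00529) and with DESeq2 (0.0397).

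Among the nuclear partners and competitors 1 of 8 genes was called lower in TE versus TF, and in SE versus SF 2 were called higher and 1 lower. Of all genes 16.2% were called lower in TE versus TF, and 20.9% higher and 19.8% lower in SE versus SF. The counts of this list were near or under these shares. The retinoid X receptors, which pair with the retinoic acid receptors, were not called in either culture comparison, though Rxrg was under some alternatives. Rxra was at 1126 and 1021 normalized read counts in TF, 865 and 800.2 in TE, 669 and 737 in SF, and 733 and 763 in SE, and it was higher in TF than in SF (0.77 ± 0.19, adjusted p = 0.0176), which was lost without either TF replicate and without SF replicate 1 (0.0759 to 0.132). Rxrb lay between 318 and 557 in all 8 libraries. Rxrg lay between 11.1 and 62.4 in the fresh libraries and between 124 and 167 in the expanded ones, without a call (adjusted p = 0.0627 in TE versus TF and 0.0785 in SE versus SF). It was called higher in TE versus TF with DESeq2 (0.0309), with only the groups compared (0.0313), with the replicate block (0.0417) and without TF replicate 1 (3.78, adjusted p = 0.0273), in SE versus SF without SF replicate 1 (3.59, adjusted p = 0.0249), and in both without the filter on low counts (0.0101 and 0.0245). Fabp5, a fatty acid binding protein that also carries retinoic acid, was higher in TF than in SF (2.75 ± 0.39, adjusted p = 0.00135) and rose in SE versus SF (1.57 ± 0.38, adjusted p = 0.00914). Nr2f1, an orphan receptor that competes for such repeats, was at 351 and 434 in TF and at no more than 47.2 in the other 6 libraries, and TF exceeded SF by 4.22 ± 0.92 (adjusted p = 0.0102).

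Of 10 coregulators 7 were called lower and 1 higher in SE versus SF, where 19.8% and 20.9% of all genes were. In TE versus TF 2 were called lower and none higher, against 16.2% and 9.86%. The difference between the culture effects was called for 3 coregulators, higher for Ncoa3 and Crebbp and lower for Zfp423, against 4.7% and 9.62% of all genes. Ncoa3, a receptor coactivator, was at 1224 and 1197 in TF, 832 and 918 in TE, 2366 and 2754 in SF, and 625 and 596 in SE. SF was far above the other groups, and TF was lower than SF by -0.92 ± 0.18 (adjusted p = 0.0062), which was lost without either TF replicate (0.0538 and 0.0587). Crebbp, a histone acetyltransferase, likewise was lower in TF than in SF (-0.65 ± 0.21, adjusted p = 0.0456), with normalized read counts of 4923 and 5365 in TF, 5267 and 4597 in TE, 8454 and 9575 in SF, and 3752 and 2765 in SE. That Crebbp call was lost with the replicate block (adjusted p = 0.0634) and without either TF replicate or SF replicate 2 (0.148 to 0.253), and its difference between the culture effects was not called without any one of the TF or TE replicates. Zfp423, a zinc finger protein needed for full retinoic acid responses, was at 510.2 and 586 in TF, 38.9 and 19.3 in TE, 238 and 274 in SF, and 529 and 452 in SE, so that TE was 16.9-fold lower than SE (-4.05 ± 0.39, adjusted p = 0.000487). Zfp423 was the coregulator called higher in SE versus SF (1.13 ± 0.34, adjusted p = 0.0257), and this call was lost with median-ratio scaling (0.0528), without SF replicate 1 (0.107) and without SE replicate 1 (0.0812).

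Of the known retinoic acid targets 5 of 13 tested genes were called lower and none higher in each culture comparison. Of all genes 16.2% were called lower in TE versus TF and 19.8% in SE versus SF, and 9.86% and 20.9% were called higher. Rarres2, which encodes chemerin, was at 865 and 1046 in TF, 5.24 and 0 in TE, 824 and 972 in SF, and 0.715 and 3.43 in SE, with a log2 fold change of -8.56 ± 0.73 in SE versus SF (adjusted p = 2.65e-05). Meis1 and Meis2, homeobox cofactors of Hox proteins, were the 2 targets called higher in TE than in SE, where 3.15% of all genes were. Meis2 was at 473 and 412 in TF, 595 and 645 in TE, 181 and 70.7 in SF, and 59.4 and 77.2 in SE, with a log2 fold change of 3.21 ± 0.43 in TE versus SE (adjusted p = 0.00241). Meis1 was at 488 and 535 in TF, 216 and 261 in TE, 132 and 205 in SF, and 105 and 51.5 in SE, with 1.63 ± 0.42 in TE versus SE (adjusted p = 0.0473). The Meis1 call was lost with median-ratio scaling (0.0511), the replicate block (0.0643) and only the groups compared (0.0757), and without either TE replicate or SE replicate 2, at 1.21 to 1.77 (0.102 to 0.209).

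Between the fresh groups 12 of the 55 pathway genes were called higher in TF and 3 lower, against 15.1% and 9.13% of all genes. Fewer were called without either TF replicate or without SF replicate 1, where fewer of all genes were called as well. Between the expanded groups 2 were called higher in TE and 3 lower, against 3.15% and 4.07%. Fewer were called without either TE replicate and more without SE replicate 2, and calls of all genes moved the same way. The difference between the culture effects was called for 10 genes, 2 higher and 8 lower, against 4.7% and 9.62%.

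**Figure D5:**
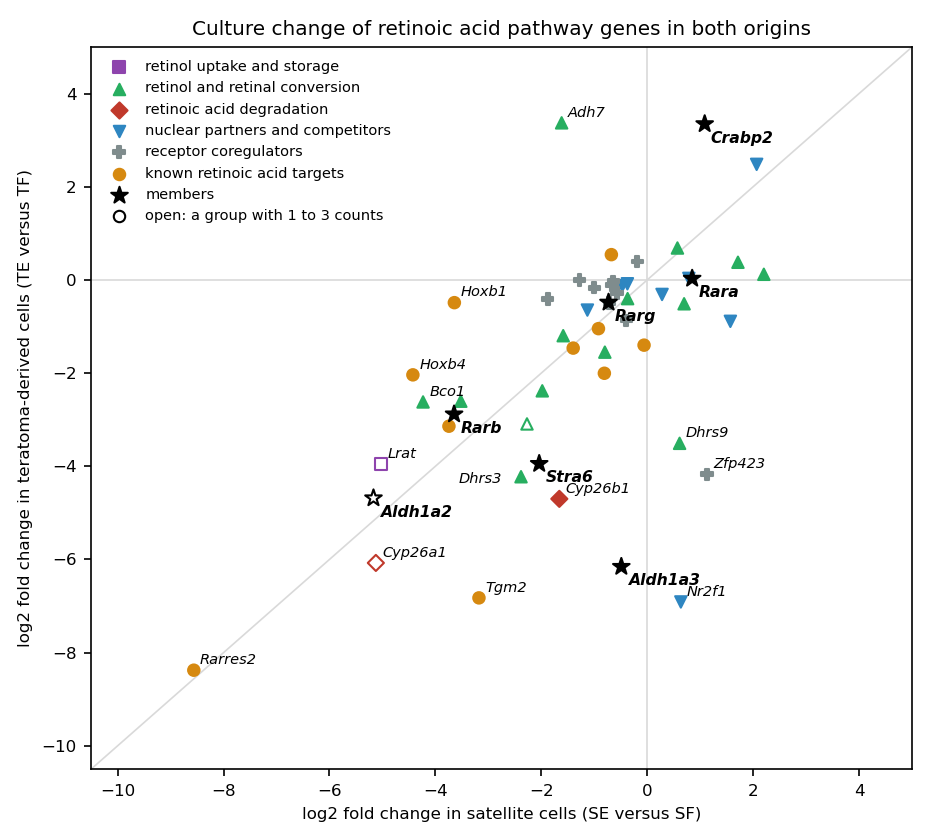
Log2 fold change with culture in teratoma-derived cells (vertical axis, TE versus TF) against that in satellite cells (horizontal axis, SE versus SF) for 45 pathway genes, by list, and 7 of the 9 members (stars), with genes at 0 in a whole group left out. Open symbols have a group with 1 to 3 counts, the diagonal marks equal change, and genes are labelled past 4 on either axis or where the changes differ by more than 3. Aldh1a3 (-6.16 and -0.49) lies far under the diagonal, and Crabp2 (3.35 and 1.09) lies above it.

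Across the 8 libraries the genes whose pattern was most like that of a member were listed by Pearson's r of log2(normalized read count + 1). These values are a description, since libraries of a group share their condition and the 8 libraries are therefore not independent points. Nearest to Aldh1a1 were Lrig1 (r = 0.996), Ebf1 (0.994) and Mcc (0.994). For Aldh1a2 they were Heph (0.985), Mylip (0.983) and Mfap4 (0.981), and for Aldh1a3 Lrrc55 (0.983), Emilin1 (0.970) and 0610040J01Rik (0.968). Rarb was nearest to Fgf2 (0.994), Gxylt2 (0.989) and Pax7 (0.989), the transcription factor that marks satellite cells. Pax7 was at 3067 and 4914 normalized read counts in TF, 1503 and 1241 in TE, 4046 and 4581 in SF, and 1743 and 1174 in SE. Rara was nearest to Zfp41 (0.990), Cenpn (0.980) and Ppa2 (0.975), and Rarg to Klf2 (0.987), Bcl10 (0.980) and Abi2 (0.979). Crabp2 was nearest to Yars (0.991), Polr1a (0.980) and Zmym2 (0.978), and Stra6 to Ccdc170 (0.987), 4632428C04Rik (0.980) and Mmp17 (0.980). Crabp1 was under the mean level set for this listing.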

How the data were processed

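RNA of 8 libraries (TF, TE, SF and SE, 2 each) was read in pairs after preparation with a strand-specific kit for low input of total RNA. The authors deposited 1 table of estimated counts per gene symbol, not normalized. Per the labels, the processing notes name CASAVA, kallisto 0.44.0 and the builds GRCm38 and mm10, without their roles, and such tools may split reads between similar genes. How transcripts were summed to genes is not given in the sources used here. Whole numbers made up 74.4% to 84.4% of each library's values.

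Estimated counts were rounded, genes were filtered with filterByExpr (17582 kept) and scaled by TMM, and edgeR's quasi-likelihood test was run in 1 model of all 4 groups with no replicate block, with Benjamini-Hochberg adjustment over all tested genes. Calls used adjusted p below 0.05 and a change of more than 0.32 on the log2 scale, the study's thresholds. The common dispersion was 0.233. Replicates differed by more than sampling noise in every group (chi-square per degree of freedom between 11.7 and 87.2), and all libraries were kept. Normalized read counts used DESeq2's median-ratio size factors. Ratios against groups with 1 to 3 counts have exact 95% counting intervals (Clopper-Pearson), which cover counting error only. The tests were checked on simulated data for TE versus TF. Of 104 genes changed 8-fold 77.9% were called in the right direction, and of 96 genes changed 2.5-fold 21.9% were. Of the 104 calls 2 were of unchanged genes. Only the 104 and 96 genes were changed, in TE alone and not among the genes of lowest counts. All other genes were simulated equal between groups. The measured data had 4581 calls in TE versus TF, so the adjustment was stricter in the simulation. These recovery shares therefore do not carry over to the measured data. A change that was not called may still be present. The members and gene lists were chosen with earlier results of these data known. The pathway genes named were Rdh10, Dhrs3, Rbp4, Cyp26a1, Cyp26b1 and the Rxr genes, and in each comparison the 3 called genes with the largest change in each direction at a mean of at least 50 normalized read counts. Genes of like pattern were listed for members at that mean or more, 3 each. A gene that this rule also named is not reported here. Aldh1a7, Bco1 and Top2b were named after their values were seen. The alternatives were median-ratio scaling, no filter, DESeq2, a replicate block, only the groups compared, and each library left out. Positions and transcript lengths are from GENCODE M21 on GRCm38. Versions were R 4.3.3, edgeR 4.0.16, limma 3.58.1 and DESeq2 1.42.0.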

Additional observations from a re-analysis of the deposited data

Results flagged for a closer look

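The difference between the culture effects of teratoma-derived and satellite cells was called by edgeR in 8 named genes with a measurable size. Of all tested genes 4.7% were called higher and 9.62% lower in this comparison. Since genes were named by called changes or chosen with these data known, nothing is read from the count of 8. Nr2f1, Crebbp, Ncoa3 and Ttr were named in part for a large called change in this comparison, so their calls here follow from the naming rule. Zfp423, Fabp5 and Rdh14 were named for large called changes in comparisons that are parts of this difference. Their adjusted p-values here are therefore not free of the naming rule either. On the log2 scale, the teratoma-derived effect minus the satellite effect was -5.67 ± 1.49 (SE) for Aldh1a3 and 2.26 ± 0.35 for Crabp2, which are members chosen with these data in view and carry no p-value. It was -7.55 ± 1.35 for Nr2f1, -5.30 ± 0.52 for Zfp423, -2.46 ± 0.53 for Fabp5, -2.08 ± 0.55 for Rdh14, 1.27 ± 0.29 for Crebbp and 1.47 ± 0.26 for Ncoa3, with adjusted p-values of 0.00597, 0.000356, 0.0142, 0.034, 0.0184 and 0.00547. Aldh1a1, Crabp1 and Ttr were also called, but each had a group at 0, so no size is given. The call of Crebbp was lost without any one of the TF or TE replicates (1.18 to 1.37), that of Rdh14 without TF replicate 2, either TE replicate, SF replicate 1 or SE replicate 2 (-2.17 to -1.82), that of Ttr without TF replicate 2, SF replicate 1 or SE replicate 2, that of Aldh1a3 without either TF replicate or SF replicate 1, and that of Crabp1 without TF replicate 2. Groups of 2 libraries were too small to test for a library far from the others.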

How the results depend on the processing

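No called change of a named gene turned its direction under any alternative. Of 1479 values of named genes under the alternatives 50 had another sign than the reported one, and none of these was called in either fit. Libraries with the same replicate number shared little deviation, since the correlations of deviations between groups over 17582 genes lay between -0.0228 and 0.0261. Such values cannot show whether an expanded replicate was grown from the fresh replicate of the same number. With the replicate block the counts of calls in TE versus TF, SE versus SF, TF versus SF, TE versus SE and the difference of culture effects were 7, 6, 3, 2 and 4 for the members and 18, 23, 14, 6 and 10 for the other pathway genes. Among the named pathway genes the block ended the calls of Crebbp in TF versus SF, Meis1 and Rdh5 in TE versus SE and Rdh5 in TE versus TF, and added those of Rxrg in TE versus TF and Nr2f1 in TE versus SE. Without the filter on low counts 14, and with DESeq2 12, other pathway genes were called in TE versus SE, against 5. Calls of all genes rose too, to 2260 of 23005 and 2147 of 17582, against 1268 of 17582. With only the groups compared, 3 members were called in SE versus SF, against 6, and 1 in TE versus SE, against 2. Of all genes 6329 of 16049 and 1015 of 14193 were called there, against 7152 and 1268 of 17582. Leaving out each library gave 4 to 7 called members in TE versus TF, 5 to 6 in SE versus SF, 0 to 2 in TF versus SF, 2 to 3 in TE versus SE and 2 to 4 for the difference, and 13 to 18, 20 to 23, 6 to 14, 3 to 8 and 7 to 13 other pathway genes. The number of all genes called changed in these fits as well. The causes were not tested, beyond the smaller number of libraries. With an arm of 1 library, that library was assumed to vary like the other groups. Median-ratio scaling moved the median log2 change of all genes by -0.19 in SE versus SF, -0.16 in TF versus SF, where it turned from 0.08 to -0.08, and 0.14 for the difference. With DESeq2 40.8%, 48.7% and 43.9% of all calls in these comparisons were higher, against 51.4%, 62.3% and 32.8%. With 2 libraries per group and a floor of 3 counts, sizes of low genes are known only roughly.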
